A study of Mus musculus with 9 samples.

Results

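The 10 genes described here encode components of the glomerular basement membrane, the sheet of matrix between the podocytes and the endothelium of the kidney's filtering capillaries. They were chosen by name: the laminin chains Lama5, Lamb1, Lamb2 and Lamc1, the collagen IV chains Col4a1 and Col4a2, the linkers Nid1 and Nid2 and the heparan sulfate proteoglycans Agrn and Hspg2, out of 22180 genes measured. Earlier results of these data were known when they were chosen. Each gene was read from the probe set with 1 gene symbol and the highest mean over all 9 arrays, and all 10 were found. Transcripts of cultured mouse podocytes were measured on single-colour arrays, with 3 arrays in each of 3 groups. All cells had been kept for 11 days at 37 °C to differentiate. The combined group received 2.5 µM thapsigargin and 10 µM forskolin for 16 hours, the thapsigargin group received 2.5 µM thapsigargin alone for 16 hours, and the DMSO group received the vehicle. There was no group with forskolin alone, so forskolin was tested only on top of thapsigargin. Each group's arrays are labelled as biological replicates, but whether they came from separate cultures is not said, so the spread behind the p-values may be technical. The labels name neither a cell line nor a passage.

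A basement membrane is built from networks of laminin and of collagen IV. Laminins are trimers of an alpha, a beta and a gamma chain that polymerise at the cell surface, and the mature glomerular basement membrane holds mainly the trimer of Lama5, Lamb2 and Lamc1, while Lamb1 belongs to the trimer of the immature glomerulus. Collagen IV is also a trimer; chains of Col4a1 and Col4a2 form the network that is largely replaced in the mature glomerulus by Col4a3, Col4a4 and Col4a5. Nidogens bind laminin to collagen IV, and agrin and perlecan (Hspg2) carry the negatively charged heparan sulfate chains. All of these proteins are folded in the endoplasmic reticulum (ER). Thapsigargin inhibits the SERCA calcium pump and empties the ER calcium store, and forskolin stimulates adenylyl cyclase and so raises cAMP.

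Col4a1 and Col4a2 lie head to head on chromosome 8, and their 300-base promoter windows, 250 bases before to 50 after the start site, share 78 bases. They are shown because the pair had a like pattern on these arrays (Pearson's r = 0.998 over the 9 arrays), though the Col4a1 probe set fell further after thapsigargin. Col4a2 was as close to Lamb1, which lies on chromosome 12 (r = 0.998). Whether the shared bases have a part in the pattern was not tested. The windows, from RefSeq on GRCm38.p6, are chr8:11312777-11313076 on the minus strand for Col4a1 and chr8:11312555-11312854 on the plus strand for Col4a2, and capitals mark the shared bases.
Col4a1: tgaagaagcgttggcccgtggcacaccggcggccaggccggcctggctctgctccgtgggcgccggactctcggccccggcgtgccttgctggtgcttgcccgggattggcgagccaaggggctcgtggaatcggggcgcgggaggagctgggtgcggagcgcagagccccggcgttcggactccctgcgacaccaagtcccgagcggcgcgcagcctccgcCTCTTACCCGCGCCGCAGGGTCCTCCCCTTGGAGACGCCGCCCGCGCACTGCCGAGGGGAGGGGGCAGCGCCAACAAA
Col4a2: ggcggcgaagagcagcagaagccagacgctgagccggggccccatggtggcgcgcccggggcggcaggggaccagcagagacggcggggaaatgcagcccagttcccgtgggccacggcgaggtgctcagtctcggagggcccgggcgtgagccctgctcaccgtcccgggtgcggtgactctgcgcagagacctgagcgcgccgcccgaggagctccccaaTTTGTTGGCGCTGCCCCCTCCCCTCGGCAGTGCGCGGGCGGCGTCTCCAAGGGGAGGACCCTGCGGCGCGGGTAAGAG
The windows of Nid1 (chr13:13437352-13437651, plus strand) and Lama5 (chr2:180225810-180226109, minus strand) are shown because these were the members with the largest fall when forskolin was added. Capitals mark matches, on either strand, to the cAMP response element half-site TGACG, the CCAAT box and the GC box GGGCGG.
Nid1: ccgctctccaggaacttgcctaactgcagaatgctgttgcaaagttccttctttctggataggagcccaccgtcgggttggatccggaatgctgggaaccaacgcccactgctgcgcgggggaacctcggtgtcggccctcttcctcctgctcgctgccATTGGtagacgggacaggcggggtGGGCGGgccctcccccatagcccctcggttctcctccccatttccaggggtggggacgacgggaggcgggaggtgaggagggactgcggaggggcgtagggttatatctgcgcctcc
Lama5: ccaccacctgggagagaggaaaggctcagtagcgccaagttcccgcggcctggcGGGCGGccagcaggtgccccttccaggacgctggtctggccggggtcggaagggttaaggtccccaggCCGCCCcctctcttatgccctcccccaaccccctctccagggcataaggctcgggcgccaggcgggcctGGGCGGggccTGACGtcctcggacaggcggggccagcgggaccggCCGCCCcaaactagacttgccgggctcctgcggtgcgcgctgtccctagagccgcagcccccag
The window of Lama5 held 1 TGACG, 49 bases before the start site (position -49), and 4 GC boxes, while that of Nid1 held no TGACG, 1 CCAAT box at position -91 and 1 GC box at position -67. TGACG was present in 20.8% of all 32851 windows of this length, CCAAT in 37.4% and GGGCGG in 35.7%. A window was at hand for 8 of the 10 genes. None was at hand for Nid2 and Lamc1, which also changed when forskolin was added. Besides Lama5, only Lamb2 held a TGACG among the windows searched, at position 16. None of these windows held the full cAMP response element TGACGTCA (1.79% of all windows), the unfolded protein response element core TGACGTGG (0.676%), the ER stress element, CCAAT and CCACG with 9 bases between them (0.119%), or the amino acid response core TTGCATCA (0.895%), each searched on both strands. TGACG lies within 2 of these motifs and CCAAT within 1. A match describes letters in a window and is not a binding site.

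After thapsigargin all 10 basement membrane genes fell relative to DMSO, in a limma fit with Benjamini-Hochberg adjustment over all genes (adjusted p from 1.19e-09 for Nid2 to 0.000893 for Lamb2). Over all genes tested, 16.9% were lower by the same test, and 25.5% of the 12999 genes above the median level of the probe sets were. The size of the fall ranged from 8.3-fold for Nid2 to 1.27-fold for Lamb2, and 4 of the 10 fell at least 2-fold, against 2.94% of all genes. The median log2 change of the 10 was -0.91, beside -0.04 over all genes. In cultured cells, fewer cells that make a transcript and less of it per cell cannot be told apart. On every gene the 3 thapsigargin arrays lay below the 3 DMSO arrays, which was so for 22.3% of all genes.

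**Figure D1:**
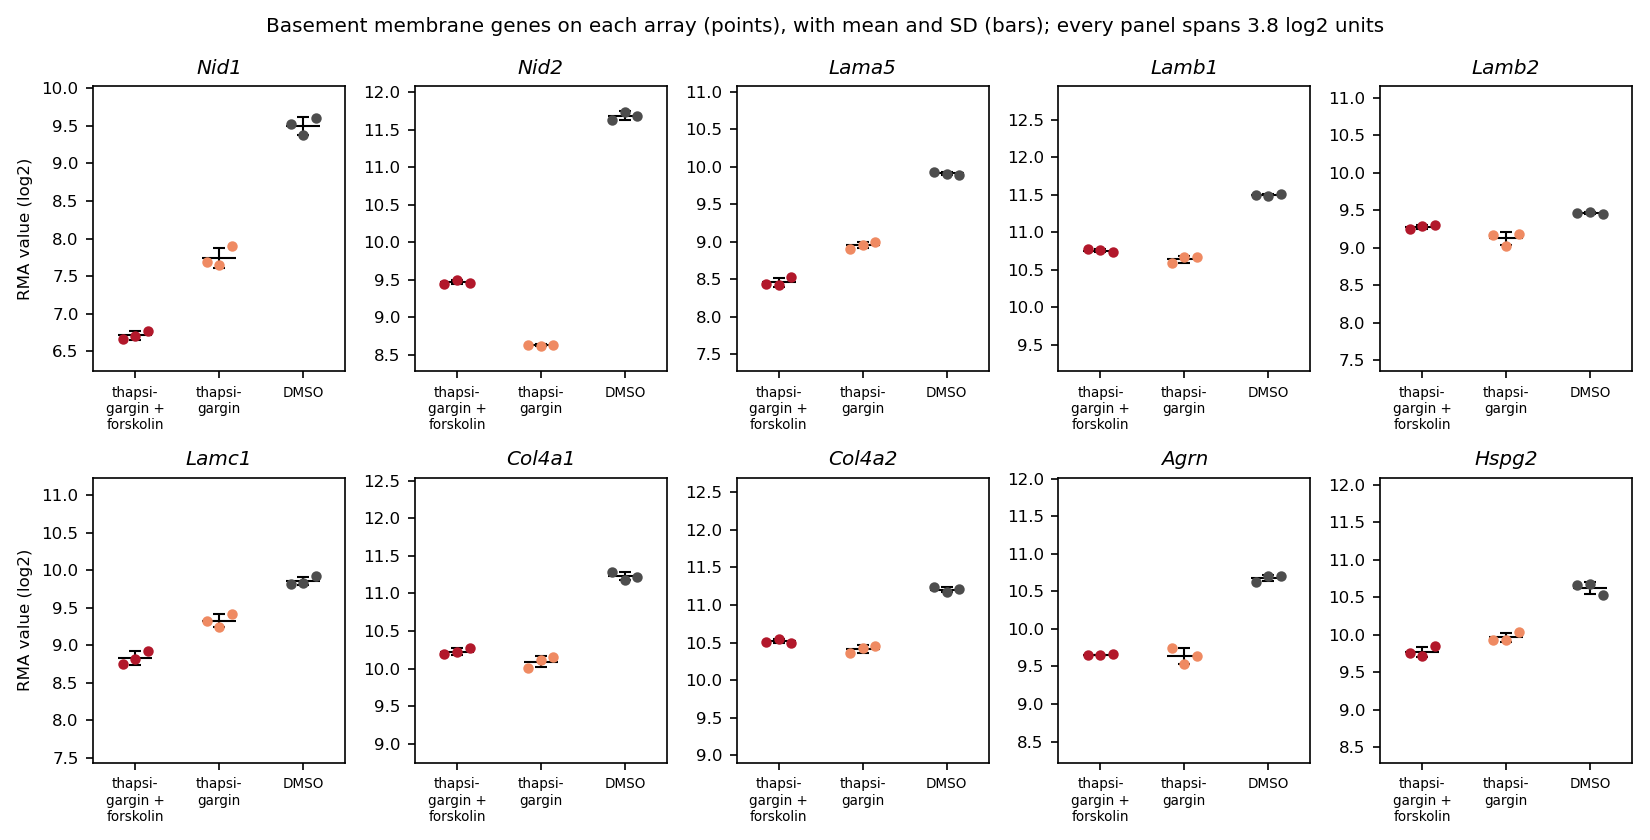
RMA values (log2 scale, vertical axis) of the 10 genes on each array, with groups from left to right thapsigargin with forskolin, thapsigargin and DMSO; points are arrays, and bars give the mean and SD of 3 arrays. Each panel spans the same number of log2 units. The DMSO arrays lie above both treated groups in all 10 panels, and Nid1 and Nid2 order the treated groups oppositely.

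The nidogens changed most. Nid2, the second of the linker genes, read 9.44, 9.50 and 9.46 on the combined arrays, 8.64, 8.62 and 8.64 on the thapsigargin arrays and 11.62, 11.74 and 11.69 on the DMSO arrays (log2, replicates 1 to 3). The 3 groups were fully apart, with thapsigargin alone the lowest. The fall after thapsigargin was -3.05 ± 0.05 (log2 change ± limma standard error, n = 3 arrays per group), which left 12.1% of the DMSO level, and Nid2 stood at place 18 of all genes ranked from the most negative change. Nid1, which encodes the linker also called entactin, read 6.66, 6.70 and 6.77 on the combined arrays, 7.69, 7.64 and 7.90 on the thapsigargin arrays and 9.52, 9.38 and 9.61 on the DMSO arrays. Here too the groups did not overlap, but the combined group was the lowest. Nid1 fell by 1.76 ± 0.08 after thapsigargin, which left 29.6% of the DMSO level. A second probe set of Nid1, not used for the test per gene, read 6.36, 6.56 and 6.69 on the combined arrays, 7.16, 7.11 and 7.30 on the thapsigargin arrays and 8.75, 8.71 and 8.84 on the DMSO arrays. It put the groups in the same order, with smaller changes of -1.58 ± 0.09 for thapsigargin over DMSO and -0.65 ± 0.09 for the combination over thapsigargin (limma adjusted p = 8.58e-07 and 0.00248 over 23521 probe sets).

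Adding forskolin to thapsigargin moved the nidogens in opposite directions. Nid2 was 1.79-fold higher in the combined group than with thapsigargin alone (log2 change 0.84 ± 0.05, limma adjusted p = 1.45e-05) and Nid1 was 2.05-fold lower (-1.04 ± 0.08, limma adjusted p = 8.71e-05). With 22180 genes ranked from the most negative change, Nid1 stood at place 26 and Nid2 at place 22084. Both stayed below DMSO in the combined group, where 21.5% of the DMSO level was left for Nid2 (log2 change -2.22 ± 0.05) and 14.4% for Nid1 (-2.79 ± 0.08). The second probe set of Nid1 gave -2.23 ± 0.09 in this comparison, close to the change of Nid2. The within-array difference Nid1 minus Nid2 follows unequal change of the probe sets read. Its level depends on the probes, and so does the size of its change. For the combination over thapsigargin the 2 probe sets of Nid1 gave -1.04 and -0.65. With the Nid1 probe set used, the difference was -2.79, -2.80 and -2.70 on the combined arrays, -0.95, -0.98 and -0.74 on the thapsigargin arrays and -2.11, -2.37 and -2.08 on the DMSO arrays. The 3 groups were apart in this difference with the Nid1 probe set used. With the second probe set of Nid1 the combined and DMSO arrays overlapped. With the probe set used, the difference changed by 1.30 for thapsigargin against DMSO and by -1.87 for the combination against thapsigargin. Both changes gave p = 0.1 in an exact permutation test (two-sided), and groups of 3 cannot go lower; the adjusted p over 12 such tests was 0.133.

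Of the 10 genes, 3 fell, 1 rose and 6 did not pass the test when forskolin was added (limma with Benjamini-Hochberg adjustment), where 4.17% of all genes were lower and 3.7% higher, or 6.91% and 5.97% of the genes above the median level. The 4.17% are 924 genes, and the number was 586 without thapsigargin replicate 1, 568 without thapsigargin replicate 3 and 600 without combined replicate 2, while the counts among the 10 genes did not change with any array left out. The other genes that fell beside Nid1 were Lama5 and Lamc1, the alpha and gamma chains of the laminin trimer. The median log2 change of the 10 was 0.06, beside -0.01 over all genes. The combined and thapsigargin arrays were apart in 9 of the 10 genes, lower in 4 and higher in 5, where 14% of all genes were apart and lower and 12.1% apart and higher.

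**Figure D2:**
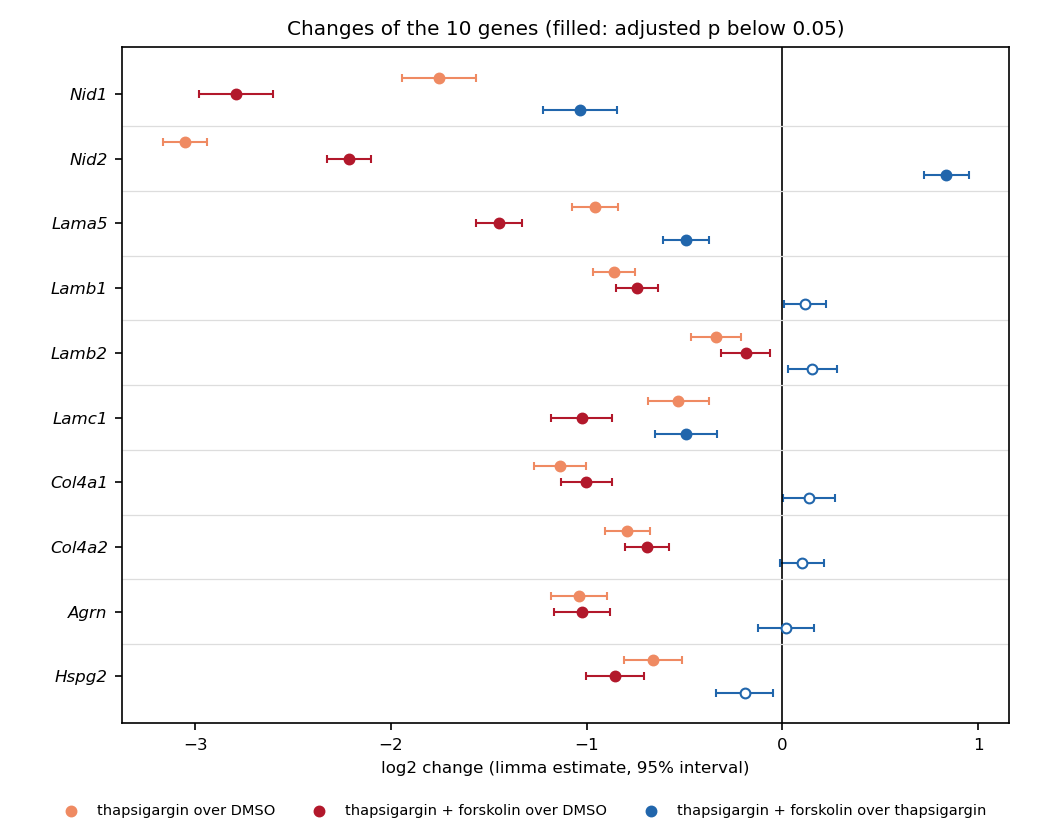
Log2 changes of the 10 genes (horizontal axis) in the 3 comparisons, with limma estimates as points and 95% intervals as bars; filled points passed an adjusted p of 0.05. All changes over DMSO lie left of 0. With forskolin added to thapsigargin the filled points are those of Nid1, Lama5 and Lamc1, left of 0, and of Nid2, right of it.

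The laminin chains split by their response to forskolin. Lama5, the alpha chain, read 8.44, 8.42 and 8.53 on the combined arrays, 8.91, 8.96 and 8.99 on the thapsigargin arrays and 9.93, 9.91 and 9.90 on the DMSO arrays. It was lowest in the combined group and highest with DMSO, with no overlap. Lama5 was 1.41-fold lower in the combined group than with thapsigargin alone (-0.49 ± 0.05, limma adjusted p = 0.000461), and thapsigargin alone had lowered it by 0.96 ± 0.05. Lamc1, the gamma chain of most laminins, read 8.75, 8.82 and 8.93 on the combined arrays, 9.33, 9.24 and 9.41 on the thapsigargin arrays and 9.82, 9.83 and 9.93 on the DMSO arrays. It had the same order of groups, again apart, with -0.49 ± 0.07 for the combination over thapsigargin (limma adjusted p = 0.00236) and -0.53 ± 0.07 for thapsigargin over DMSO. In the combined group 36.6% of the DMSO level of Lama5 and 49.1% of that of Lamc1 were left.

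The beta chains had the combined group between the others. Lamb1 read 10.78, 10.76 and 10.74 on the combined arrays, 10.59, 10.67 and 10.67 on the thapsigargin arrays and 11.51, 11.49 and 11.51 on the DMSO arrays. Thapsigargin lowered Lamb1 by 0.86 ± 0.05, and the difference of the combination from thapsigargin was 0.12 (95% interval 0.01 to 0.22, limma adjusted p = 0.225, or 0.0322 with an intensity trend and robust prior). Lamb2, the beta chain of the mature glomerulus, read 9.25, 9.29 and 9.30 on the combined arrays, 9.17, 9.03 and 9.18 on the thapsigargin arrays and 9.46, 9.48 and 9.45 on the DMSO arrays. Its values lay closest together of the 10 genes. Lamb2 was lower by 0.34 ± 0.06 after thapsigargin, and its difference with forskolin added was 0.15 (95% interval 0.03 to 0.28, limma adjusted p = 0.166). In the combined group Lamb2 was -0.19 ± 0.06 below DMSO (limma adjusted p = 0.0269), a call that was lost without DMSO replicate 2 or without any 1 of the 3 combined arrays (limma adjusted p from 0.055 to 0.0734). The difference Lamb1 minus Lamb2 was lower by 0.52 after thapsigargin than in DMSO, with arrays apart (exact two-sided permutation p = 0.1, adjusted p = 0.133). Between the combination and thapsigargin it differed by -0.04, with overlapping arrays (exact permutation p = 0.8), or by 0.03 without thapsigargin replicate 2.

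The collagen IV chains followed each other closely. Col4a1 read 10.19, 10.22 and 10.27 on the combined arrays, 10.01, 10.11 and 10.15 on the thapsigargin arrays and 11.28, 11.18 and 11.23 on the DMSO arrays. Col4a2 read 10.51, 10.55 and 10.49 on the combined arrays, 10.36, 10.42 and 10.46 on the thapsigargin arrays and 11.24, 11.17 and 11.21 on the DMSO arrays. Both had DMSO well above the treated groups, which lay close to each other without overlap. Col4a1 fell 2.2-fold after thapsigargin (-1.14 ± 0.06) and Col4a2 1.73-fold (-0.79 ± 0.05). With forskolin added, the log2 difference from thapsigargin was 0.14 for Col4a1 (95% interval 0.00 to 0.27) and 0.10 for Col4a2 (95% interval -0.01 to 0.21), with limma adjusted p of 0.245 and 0.326. The difference Col4a1 minus Col4a2 was -0.32 ± 0.03 on the thapsigargin arrays, against 0.02 ± 0.02 on the DMSO arrays (SD, n = 3 each). The Col4a1 probe set thus fell further than that of its partner by 0.34 on the log2 scale (exact two-sided permutation p = 0.1, adjusted p = 0.133). Each gene was read from 1 probe set, and whether the probes respond alike was not tested. Between the combination and thapsigargin Col4a1 minus Col4a2 differed by 0.03, with overlapping arrays (exact permutation p = 0.6).

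Of the proteoglycans, Agrn, which encodes agrin, read 9.65, 9.65 and 9.66 on the combined arrays, 9.75, 9.53 and 9.64 on the thapsigargin arrays and 10.63, 10.70 and 10.71 on the DMSO arrays. The treated groups overlapped, the only such case among the 10 genes. Thapsigargin lowered Agrn by 1.04 ± 0.06, and the difference with forskolin added was 0.02 (95% interval -0.13 to 0.16, limma adjusted p = 0.938), whose sign turned to -0.02 when arrays were centred on their medians and to -0.04 without thapsigargin replicate 2. Hspg2, which encodes perlecan, read 9.75, 9.71 and 9.85 on the combined arrays, 9.93, 9.93 and 10.04 on the thapsigargin arrays and 10.67, 10.68 and 10.53 on the DMSO arrays. It fell by 0.66 ± 0.07 after thapsigargin, and its difference with forskolin added was -0.19 (95% interval -0.34 to -0.05, limma adjusted p = 0.127, or 0.0338 with an intensity trend and robust prior). The difference Agrn minus Hspg2 changed by -0.38 after thapsigargin (exact permutation p = 0.1) and by 0.21 when forskolin was added (exact permutation p = 0.2), where the arrays overlapped.

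**Figure D3:**
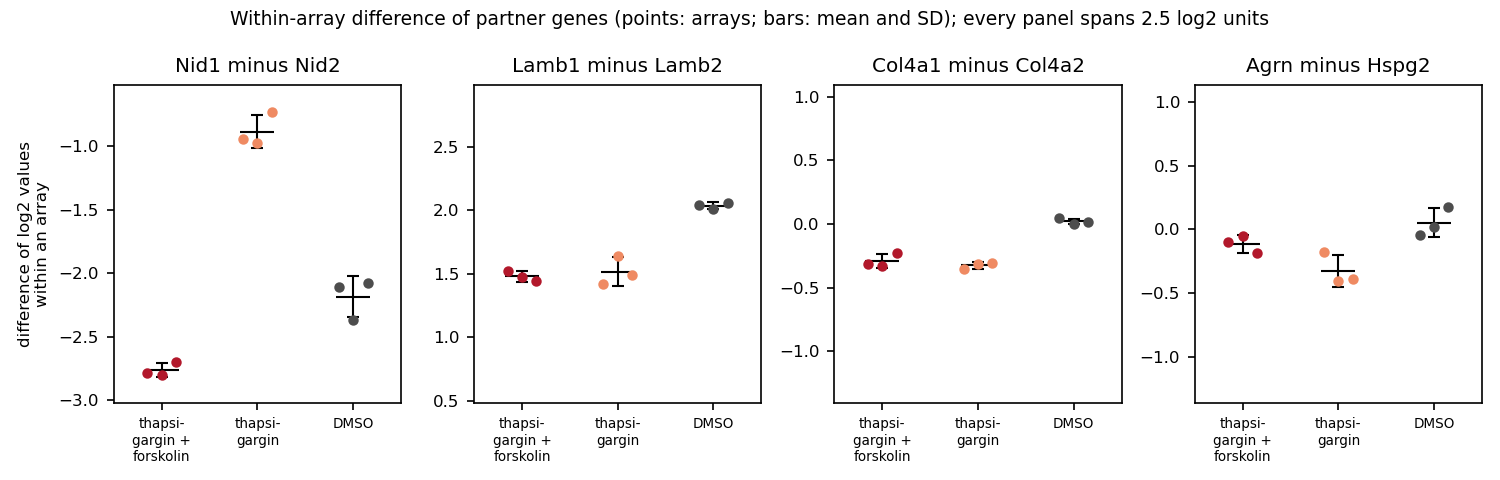
Difference of the log2 values of partner genes within each array (vertical axis), with groups from left to right thapsigargin with forskolin, thapsigargin and DMSO; points are arrays and bars give the mean and SD of 3 arrays. Nid1 minus Nid2, with the Nid1 probe set used, separates all 3 groups, while the other pairs separate thapsigargin from DMSO and overlap between the treated groups.

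Set against DMSO, the combination lowered all 10 genes, where 16.7% of all genes and 24.8% of those above the median level were lower (limma adjusted p from 4.27e-09 for Nid2 to 0.0269 for Lamb2). The median log2 change was -1.01, beside -0.04 over all genes, and 6 of the 10 fell at least 2-fold, where 2.7% of all genes did. The combined arrays lay below the DMSO arrays on every one of the 10, which was so for 21.2% of all genes. This comparison and that of thapsigargin share the DMSO arrays, so the counts are not independent. In 6 genes (Nid2, Lamb1, Lamb2, Col4a1, Col4a2 and Agrn) the mean of the combined group lay between thapsigargin and DMSO, and in 4 (Nid1, Lama5, Lamc1 and Hspg2) it was the lowest of the 3.

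Patterns were compared by Pearson's r over the 9 arrays, a description in which 3 separate groups of arrays drive the value. Nid1 was most like Itga3, the integrin alpha chain with which podocytes hold laminin (r = 0.998), then Hs3st1, a heparan sulfate sulfotransferase (0.997), and Fblim1, an adapter of cell-matrix contacts (0.997). Nid2 was most like the taurine transporter gene Slc6a6, Afap1l2 and Dclk1, each at 0.999. Lamb1 was most like Col4a2, the ephrin gene Efnb1 and Pla1a, each at 0.998, and Col4a1 like Tspan17 (0.999), Bex3 (0.998) and Col4a2 (0.998). Within the 10 genes the nearest partner was Lama5 for Nid1 (0.997), Nid1 for Lamc1 (0.987) and Lamb1 for Nid2 (0.987). Lamb2 and Lamc1 had the lowest correlation, 0.566.

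Other basement membrane chains and linkers were followed as a list. After thapsigargin 11 of 24 measured genes fell and 0 rose (limma adjusted p below the threshold of 0.05; 16.9% lower and 18.2% higher over all genes), with a median of -0.20, beside -0.04 over all genes. The largest falls were those of Npnt, which encodes the integrin ligand nephronectin (8.80 on thapsigargin against 11.61 on DMSO arrays, 7-fold), Ntn4, which encodes a netrin that binds laminin (4.21-fold), Fbln2 (3.16-fold) and Tinagl1 (2.28-fold). The chains of the mature collagen IV network fell as well. Col4a5 changed by -1.01 ± 0.07, Col4a3 by -0.50 ± 0.10 and Col4a4 by -0.33 ± 0.07. The DMSO mean was 10.24 for Col4a5, but 6.62 for Col4a3 and 7.27 for Col4a4, nearer the median of all values. No other laminin chain measured passed the test after thapsigargin; these were Lama1, Lama2, Lama3, Lama4, Lamb3 and Lamc3, with log2 differences from -0.21 for Lamc3 to -0.03 for Lama2, named with Col4a3 after their values were seen. Their DMSO means were low, from 4.64 for Lama4 to 6.34 for Lama1, around the median of all values, 5.84. A fall from such levels may go unseen. When forskolin was added 3 of the 24 fell, namely Fbln2 at -0.45, Col4a5 at -0.44 and Col4a4 at -0.29, and 2 rose, namely Ntn4 at 0.45 and Tinagl1 at 0.24 (4.17% lower and 3.7% higher over all genes, 6.91% and 5.97% above the median level). Over DMSO the combination lowered 13 and raised 0 (16.7% lower and 17.9% higher over all genes), with Npnt 6.32-fold and Fbln2 4.3-fold lower. Lama1 and Lama3 were among those lower (limma adjusted p = 0.0116 and 0.0206).

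**Figure D4:**
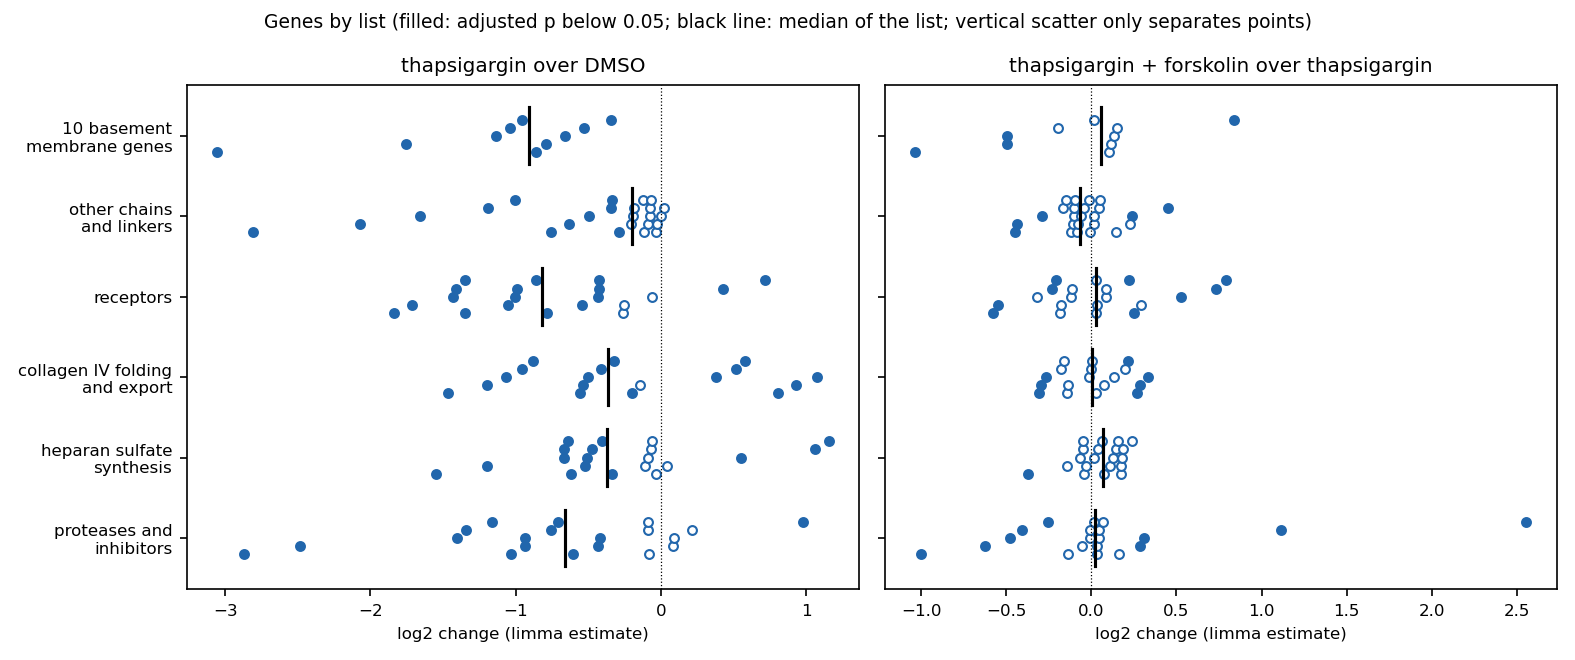
Log2 changes (horizontal axis) of the genes of each list for thapsigargin over DMSO (left) and thapsigargin with forskolin over thapsigargin (right); each point is a gene, filled where its adjusted p was below 0.05, and the black line is the median of the list. On the left the medians run from -0.91 for the 10 basement membrane genes to -0.20 for other chains and linkers, and on the right all medians lie between -0.07 and 0.07.

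The receptors of the basement membrane mostly fell. Of 20 receptor genes 15 fell and 2 rose after thapsigargin, with a median of -0.82, where 16.9% of all genes were lower and 18.2% higher. In the combination over DMSO 15 fell and 2 rose, where 16.7% of all genes were lower and 17.9% higher. The largest falls were those of Itga1, a collagen-binding integrin chain (3.57-fold), Bcam, a receptor of Lama5-containing laminins (3.28-fold), and the syndecans Sdc3 (2.69-fold) and Sdc2 (2.66-fold). With forskolin added 4 fell and 5 rose (4.17% lower and 3.7% higher over all genes). Itga3 fell by 0.55 ± 0.06 and Itga6, another laminin-binding chain, by 0.58 ± 0.08, while Sdc1 rose by 0.79 ± 0.06 and Itga1 by 0.73 ± 0.06. Itga3 averaged 10.29 on the combined, 10.83 on the thapsigargin and 11.88 on the DMSO arrays.

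Genes for the making of these proteins did not move one way. Among 18 genes of collagen IV folding, modification and export, 11 fell and 6 rose after thapsigargin (median -0.37; 16.9% lower and 18.2% higher over all genes). Pxdn, the peroxidase that crosslinks collagen IV, fell 2.75-fold, and the proline hydroxylases P3h2 and P4ha2 fell 2.29-fold and 2.1-fold. Mia3, which loads collagens into transport carriers at ER exit sites, rose 2.11-fold. With forskolin added 3 fell and 4 rose (4.17% lower and 3.7% higher over all genes), among them the collagen chaperone Serpinh1 at -0.30, Loxl1 at -0.31, the lysine hydroxylase Plod2 at 0.33 and P4ha2 at 0.29. Over DMSO the combination lowered 10 and raised 6 (16.7% lower and 17.9% higher over all genes), with Pxdn 3.12-fold lower, and Mia3 2.31-fold and the disulfide isomerase P4hb 1.9-fold higher.

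Among 20 genes of heparan sulfate synthesis and trimming, 11 fell and 3 rose after thapsigargin (median -0.37), where 16.9% of all genes were lower and 18.2% higher, so the number that rose is near the share over all genes. Hs6st2 fell 2.92-fold and the sulfatase Sulf2 2.3-fold, while the epimerase Glce rose 2.23-fold and Hs3st3b1 2.09-fold. Only Hs3st1 passed the test when forskolin was added, at -0.37 ± 0.05, which is 1 of 20 where 4.17% of all genes were lower. Over DMSO the combination lowered 10 and raised 4, where 16.7% of all genes were lower and 17.9% higher, among them Hs6st2, 2.67-fold lower, and Glce, 2.49-fold higher.

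Of 20 proteases and inhibitors that act on the matrix 13 fell and 1 rose after thapsigargin (median -0.66), where 16.9% of all genes were lower and 18.2% higher. Plau, which encodes urokinase, fell 7.3-fold, the aggrecanase Adamts4 5.6-fold, the membrane protease Mmp14 2.64-fold and the inhibitor Timp2 2.53-fold. With forskolin added 5 fell and 4 rose, where 4.17% of all genes were lower and 3.7% higher. Plau rose 5.88-fold over thapsigargin, to a mean of 9.35 on the combined arrays, against 6.79 on the thapsigargin arrays, and Adamts1 rose 2.16-fold, while Mmp9 fell 2-fold and the inhibitor Timp1 1.54-fold. Over DMSO the combination lowered 14 and raised 2 (16.7% lower and 17.9% higher over all genes), with Adamts4 5.35-fold and Plat, which encodes tissue plasminogen activator, 2.71-fold lower.

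Markers were read for the identity of the cells and for other cell types. Of 13 measured podocyte markers 12 averaged above the median of all values, 5.84, in DMSO cells, among them Synpo at 9.20, Podxl at 8.46, Wt1 at 6.80 and Nphs1 at 6.55. Detection could not be judged, since background values were not used here. The array means of the podocyte markers ranged from 7.58 to 7.62 in the combined group, from 7.72 to 7.76 with thapsigargin and from 8.33 to 8.36 with DMSO. After thapsigargin 7 of the 13 fell, 2 rose and 4 did not pass the test, with a median of -0.24. Over all genes 16.9% were lower and 18.2% higher, so the number of podocyte markers that rose is near the share over all genes. Plce1 at -3.45 and Synpo at -2.52 had the largest falls, while Foxc2 rose by 0.66 and Cd2ap by 0.23 (Plce1, Foxc2 and Cd2ap were named after their values were seen). Over the 9 arrays 12999 of all 22180 genes averaged above the median of all values. In DMSO cells 8 of 13 mesangial, pericyte and fibroblast markers did, which is near the share over all genes. Of the remaining lists 5 of 12 endothelial, 13 of 18 tubular and parietal and 3 of 9 leukocyte markers averaged above that median in DMSO cells. The defining markers of endothelium, Pecam1 at 5.77 and Cdh5 at 5.77, and of leukocytes, Ptprc at 3.78, were below it, while Ehd3 at 10.36 on the endothelial list and Csf1r at 7.98, Cd14 at 7.97 and Cd68 at 7.94 on the leukocyte list, also named after their values were seen, were above it. Pdgfrb at 10.36, Acta2 at 13.31 and Aqp1 at 11.71, markers of mesangial, contractile and tubular cells, were above it as well. After thapsigargin 4 of 13 mesangial, pericyte and fibroblast, 2 of 12 endothelial, 7 of 18 tubular and parietal and 1 of 9 leukocyte markers fell and 0 of these rose, where 16.9% of all genes were lower and 18.2% higher; the endothelial and leukocyte counts are near or below that share. The array means of the tubular list were 6.76 to 6.85 in the combined group, 6.74 to 6.78 with thapsigargin and 7.43 to 7.53 with DMSO. Those of the mesangial, pericyte and fibroblast list were 6.90 to 7.05, 6.81 to 6.88 and 7.09 to 7.18 in the same order of groups, those of the endothelial list 5.75 to 5.83, 5.82 to 5.89 and 5.94 to 6.02, and those of the leukocyte list 5.90 to 5.96, 5.69 to 5.75 and 5.90 to 6.04. With forskolin added to thapsigargin 5 podocyte markers fell and 2 rose, against 1 and 3 of the mesangial, pericyte and fibroblast list, 0 and 0 of the endothelial, 0 and 1 of the tubular and parietal and 0 and 2 of the leukocyte list, where 4.17% of all genes were lower and 3.7% higher. In lists this small, counts of 0 or 1 are near those shares. The part of these markers in the changes of the basement membrane genes was not tested.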

How the data were processed

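RNA of 9 samples of mouse podocytes was read on 1 array each. The deposited values are on a log2 scale, and the submitters' processing notes name affy and RMA as what the authors used; neither versions nor an annotation or build could be read from the sources. RMA makes the arrays' distributions alike, so changes are relative to the bulk of genes. The number of arrays limits the precision. Of 41345 probe sets 23521 had 1 symbol, and the one with the highest mean was kept per gene. Entrez IDs matched 23328 of them to RefSeq, with 0 symbols changed.

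Group means were fitted over all 9 arrays together in limma 3.58.1 (R 4.3.3; 6 residual degrees of freedom) and tested with eBayes. A gene was called where its p, adjusted by Benjamini-Hochberg over 22180 genes, was below 0.05. The procedure was tested on simulated data. Pairs of genes were compared by exact permutation over arrays. Figures used matplotlib 3.10.9. Named are all 10 genes, up to 4 called genes per list and comparison with the largest change (or, with none called, the 2 brightest), the 3 genes most like each of 4 members, and set markers; exceptions are marked. The genes, lists and rules were chosen with earlier results of these data known. Alternatives were other fits, scalings, filters, probe set means, a replicate block and each array left out; for pairs the last was chosen after seeing the data.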

Additional observations from a re-analysis of the deposited data

How the results depend on the processing

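All 10 genes were lower after thapsigargin than with DMSO under each of the 17 alternatives, and 9 or 10 were lower in the combination than with DMSO, Lamb2 being the one lost. For the combination against thapsigargin 3 were lower and 1 was higher in all alternatives but the intensity trend with robust prior. That fit called 4 lower, adding Hspg2 (limma adjusted p = 0.0338), and 2 higher, adding Lamb1 (limma adjusted p = 0.0322) to Nid2. With the replicate block the counts were 10, 3 and 10 lower and 0, 1 and 0 higher in the 3 comparisons, and no call among the 10 genes changed. Same-numbered arrays are not shown to be paired. The correlations of their deviations ran from -0.0739 to 0.247 for replicates 1 and 2. Those of replicate 3 were 0.211, 0.184 and 0.226 in the 3 comparisons, and whether its arrays share an effect was not tested. The difference of Agrn between the combination and thapsigargin turned to -0.0168 after centring on array medians and ran from -0.0388 (without thapsigargin replicate 2) to 0.0703 as each array was left out, and that of Lamb1 minus Lamb2 ran from -0.0859 to 0.0254 (without thapsigargin replicate 2). Over all genes, those lower in the combination than with thapsigargin numbered 924, against 568 to 600 when thapsigargin replicate 1 or 3 or combined replicate 2 was left out, with fewer arrays in the fit. Signal over background was not checked.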
